A study of Mus musculus with 16 samples.

Results

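The glutathione peroxidases are enzymes that reduce hydrogen peroxide or lipid hydroperoxides, most of them at the expense of reduced glutathione. Of the 49585 genes in the count table, 6 were taken here by symbol: Gpx1, Gpx2, Gpx3, Gpx4, Gpx7 and Gpx8. The list was chosen for Gpx2, which was selected on its log2 CPM values in these same cultures: its response to IL-22 differed between the genotypes. Its levels and changes are therefore given as a description with SD or SE and without a test. The other members belong to the list by name, and their comparisons were tested.

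RNA was sequenced from small intestinal organoids of Atg16l1 fl/fl mice, and 16 cultures fell into 4 groups of 4. Atg16l1 is part of the complex that attaches LC3 to membranes in autophagy. All organoids carried the floxed Atg16l1 allele, and those called ΔIEC also carried villin-cre, which is active in intestinal epithelial cells, whereas those called fl/fl were villin-cre negative. Each genotype was either left untreated or given IL-22 at 10 ng/ml for 24 h. The mice of the study were 8 to 12 wk old. Each genotype was represented by 2 organoid lines with 2 cultures per line and treatment, so that n = 4 counts cultures of 2 lines and genotype cannot be told apart from differences between lines. Within each group, the first line gave replicates 1 and 2, and the second gave replicates 3 and 4.

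GPX1 is the widely expressed cytosolic enzyme of the family. GPX2 is its close relative of the gastrointestinal epithelium and is known to be most abundant in crypts. GPX3 is secreted and circulates in plasma, GPX4 reduces phospholipid hydroperoxides within membranes and restrains ferroptosis, and GPX7 and GPX8 reside in the ER, where they take part in oxidative protein folding. In GPX1 to GPX4 the catalytic residue is selenocysteine, which is encoded by a TGA codon that would otherwise end translation.

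The codon of the catalytic residue divides the members into these classes and is shown with 21 bases of coding sequence on each side. The sequences are those of the longest protein-coding GENCODE transcript (GRCm38), read 5′ to 3′ on the coding strand, with the catalytic codon in capitals.
Gpx1: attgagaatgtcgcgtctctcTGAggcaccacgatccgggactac
Gpx2: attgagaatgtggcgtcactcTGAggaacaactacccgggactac
Gpx3: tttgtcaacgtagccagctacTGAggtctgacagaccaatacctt
Gpx4: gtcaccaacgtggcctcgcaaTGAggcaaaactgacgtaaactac
Gpx7: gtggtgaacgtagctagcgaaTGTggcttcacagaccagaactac
Gpx8: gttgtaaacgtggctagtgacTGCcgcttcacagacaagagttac
The TGA codons of Gpx1 to Gpx4 are annotated as selenocysteine, at codons 47, 40, 73 and 129 of their reading frames. In Gpx7 and Gpx8 the aligned codon is a cysteine codon. Translated and aligned, Gpx1 and Gpx2 were identical at 63.2% of 190 residues, the closest pair of the family, and Gpx7 and Gpx8 at 48.4% of 186. The other 13 pairs lay between 30.2% and 50.3%.

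Gpx2 (ENSMUSG00000042808) lies on the minus strand of chromosome 12 of GRCm38, from 76792333 to 76795554, inside the span of Fntb, which is on the opposite strand. Gpx1 (ENSMUSG00000063856) lies on the plus strand of chromosome 9 from 108338903 to 108340343, Gpx3 (ENSMUSG00000018339) on the plus strand of chromosome 11 from 54902453 to 54910377, and Gpx4 (ENSMUSG00000075706) on the plus strand of chromosome 10 from 80047166 to 80056439. Gpx7 (ENSMUSG00000028597) lies on the minus strand of chromosome 4 from 108400390 to 108406961, and Gpx8 (ENSMUSG00000021760) on the minus strand of chromosome 13 from 113042753 to 113046410.

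Reads counted on genes numbered 2135000 to 5574860 per culture, so that 1 count was worth 0.188 to 0.453 CPM. CPM are counts scaled to a common library size by edgeR's TMM method. A gene was tested if it passed edgeR's filter on low counts, which left 12559 genes, and it was called changed if the adjusted p-value of the two-sided edgeR quasi-likelihood test was under 0.01. Atg16l1 was at 31.6 to 51.8 CPM in fl/fl cultures and at 0.289 to 5.97 CPM in ΔIEC cultures. Of markers of cells outside the epithelium, the 8 stromal markers, with Dcn at 0 throughout, summed to 1.62 to 6.80 CPM per culture. The 6 immune markers Ptprc, Cd3e, Csf1r, Adgre1, Cd68 and Itgax, with Cd3e and Itgax at 0 in every culture, summed to 9.06 to 16.6 CPM. Nothing in the labels says that the cultures of a line were set up separately, so the p-values measure the spread between these cultures, which may be technical.

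Of the 6 members, 3 passed the filter. Gpx2 had 599 to 10103 counts per culture, Gpx1 had 163 to 901 and Gpx4 had 174 to 467. Gpx3 had 0 to 10 counts, Gpx7 0 to 3, and Gpx8 a single count in each of 2 cultures. The family members Gpx5 and Gpx6, known from epididymis and olfactory tissue, had no count in any culture, which allows a pooled level of up to 0.0548 CPM (3 counts in all 16 cultures). Intervals and floors of this kind cover counting error only.

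**Figure D1:**
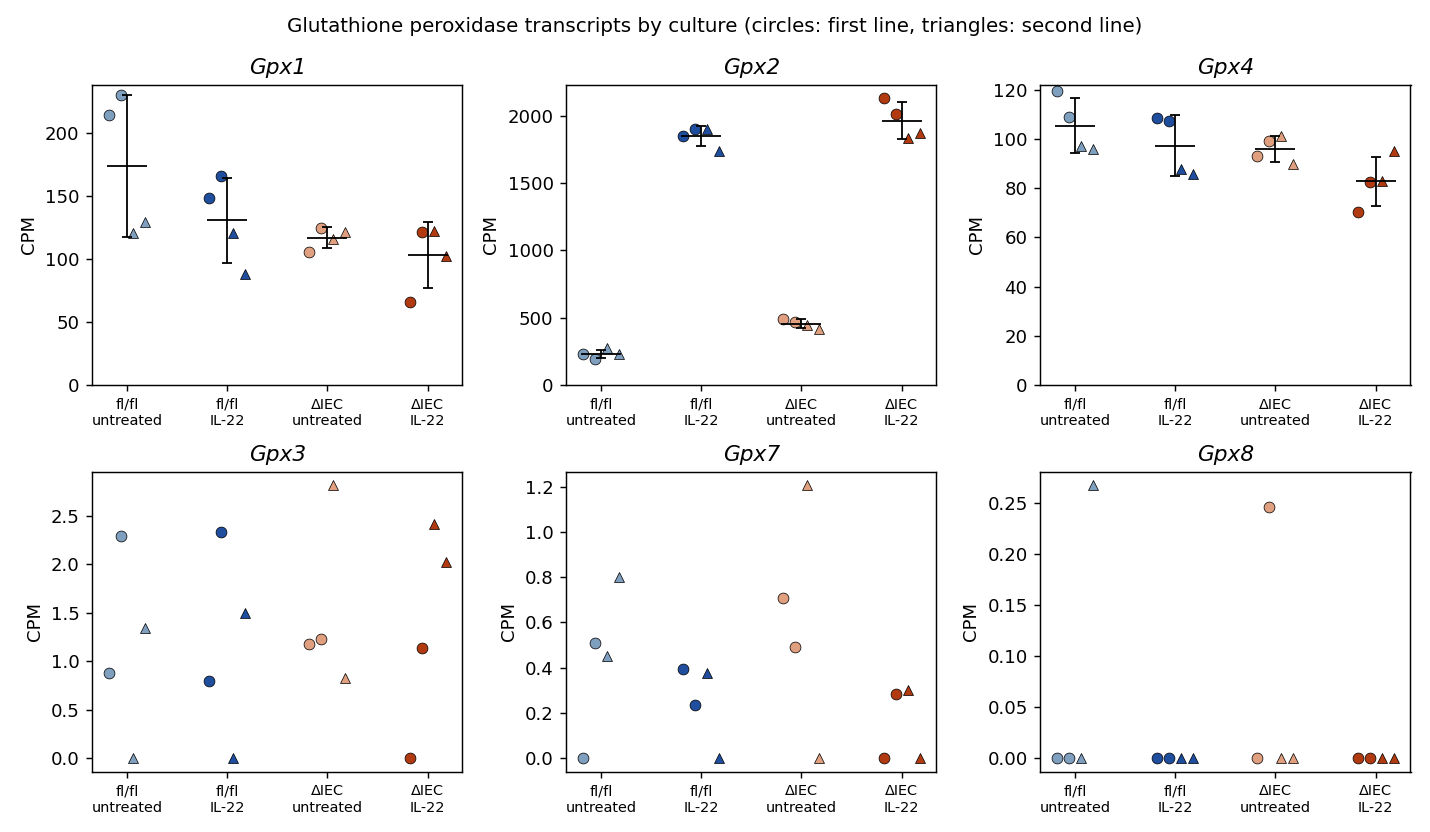
CPM of the 6 members in each of the 16 cultures, by group, with circles for the first and triangles for the second organoid line of a genotype. Black bars give mean ± SD (n = 4) for the 3 tested members, and the axis differs between panels. Gpx2 rises from 196 to 491 CPM in untreated cultures to 1739 to 2131 CPM with IL-22, whereas every other member has overlapping groups.

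Gpx2 was the member that moved with IL-22. In untreated fl/fl organoids it was at 229.7, 196.2, 271.5 and 231.1 CPM in replicates 1 to 4 (232 ± 30.8, SD, n = 4). With IL-22 the same genotype reached 1851, 1898, 1897 and 1739 CPM (1846 ± 74.8). Every treated culture was above every untreated one, as in 15.4% of all tested genes, and the log2 fold change was 2.99 (SE 0.09), or 7.97-fold.

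Untreated ΔIEC organoids started higher, at 491.4, 470.0, 448.4 and 416.6 CPM of Gpx2 (457 ± 31.9), without overlap with untreated fl/fl organoids (all higher in 10.6% of tested genes). The log2 fold change between the untreated genotypes was 0.98 (SE 0.09), or 1.97-fold. With IL-22, ΔIEC organoids were at 2131, 2013, 1831 and 1870 CPM (1961 ± 138), a log2 fold change over untreated ΔIEC of 2.10 (SE 0.09), or 4.29-fold, again without overlap (all higher in 14.1%). The treated genotypes overlapped, and Gpx2 differed between them by 0.09 on the log2 scale (SE 0.09). The genotypes thus differed in Gpx2 before treatment and overlapped after it.

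The difference between the 2 log2 responses of Gpx2 was -0.89 (SE 0.12). This interaction is the value for which Gpx2 was chosen. Over all tested genes, 0.0159% were called in it, and nothing is read from the place of Gpx2 among them. By organoid line, the log2 rise of Gpx2 was 3.14 and 2.85 in fl/fl and 2.11 and 2.10 in ΔIEC organoids. Each fl/fl line thus rose by more than each ΔIEC line on this scale. These are the values on which Gpx2 was chosen, split by line, so the split is no separate support for a difference.

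On the linear scale the increases of Gpx2 were closer to each other. IL-22 added 1614 CPM (SE 40.4) in fl/fl and 1505 CPM (SE 70.6) in ΔIEC organoids, a difference of -110 CPM (ΔIEC minus fl/fl, SE 81.4). By line, the increases were 1662 and 1567 CPM in fl/fl and 1591 and 1418 CPM in ΔIEC organoids, and their ranges overlapped.

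**Figure D2:**
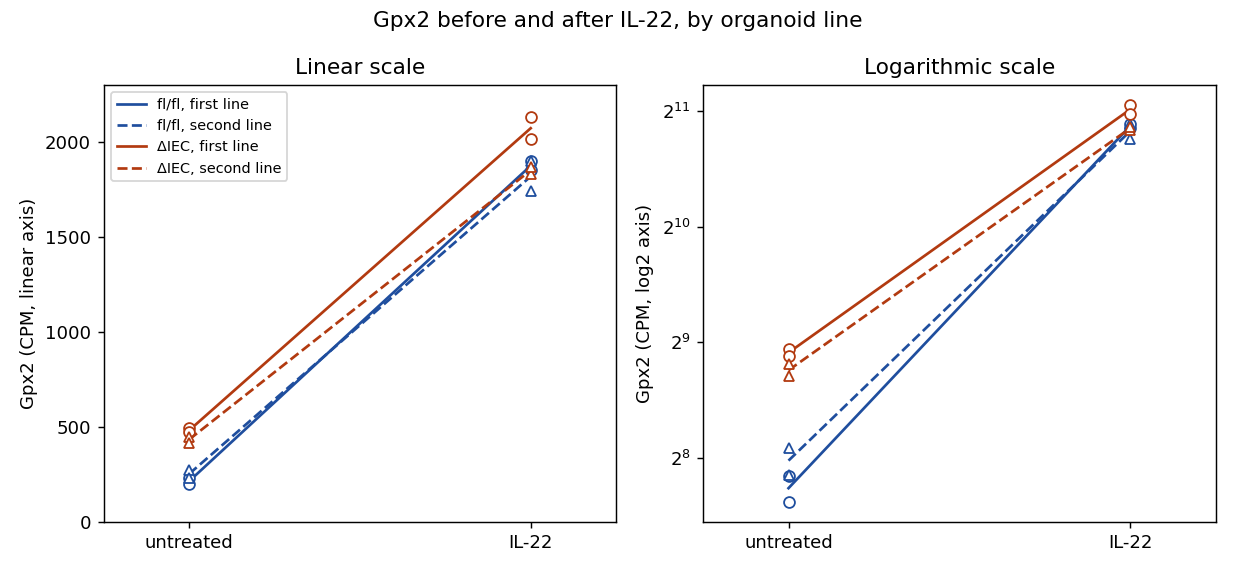
Gpx2 CPM of untreated and IL-22–treated cultures, on a linear axis (left) and a log2 axis (right), with open symbols for cultures and lines joining the means of each organoid line (2 cultures per point). The slopes lie close together on the linear axis (1418 to 1662 CPM per line), and on the log2 axis both fl/fl lines are steeper (3.14 and 2.85 against 2.11 and 2.10).

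Among all 12559 tested genes, the log2 fold change of Gpx2 with IL-22 ranked 42 from the highest in fl/fl and 99 from the highest in ΔIEC organoids. In the comparison of untreated genotypes it ranked 130 from the highest. In IL-22–treated organoids its genotype difference ranked 5175. The median log2 fold change of all tested genes was -0.05, -0.01, -0.02 and 0.01 in these 4 comparisons. Gpx2 was chosen on these same values, so nothing is read from its ranks.

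Markers of several epithelial cell types differed in the same comparisons. The summed level of 7 stem cell markers was 1963 to 2390 CPM in fl/fl organoids before and 1094 to 1217 CPM after IL-22, and 2585 to 2852 CPM before and 1183 to 1522 CPM after it in ΔIEC organoids. Of these markers, 4 fell in fl/fl and 6 in ΔIEC organoids with IL-22, and 3 were higher in untreated ΔIEC than in untreated fl/fl organoids, where 10.2%, 7.65% and 3.78% of all tested genes were called in these directions. The summed level of 8 enterocyte markers was 3371 to 3895 CPM untreated and 1469 to 1896 CPM with IL-22 in fl/fl organoids, against 3525 to 4130 and 1621 to 2152 CPM in ΔIEC organoids. The 7 Paneth cell markers summed to 6042 to 8634 CPM in untreated fl/fl and 3340 to 4380 CPM in untreated ΔIEC organoids. Of the enterocyte markers, 6 fell in fl/fl and 4 in ΔIEC organoids with IL-22, and 4 of the Paneth cell markers were lower in untreated ΔIEC organoids. With IL-22, 6 of the 7 Paneth cell markers were not called in either genotype, and Mmp7, a matrix metalloproteinase, rose in both. Goblet cell markers were called lower in untreated ΔIEC organoids in 3 of 7 cases and enteroendocrine markers in 2 of 7, against 5.98% of all tested genes. The part of these shifts in the levels of Gpx2 was not tested, and in bulk RNA fewer cells of a type and less RNA per cell cannot be told apart.

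Reads of Gpx2 can also have been counted on a copy of it. Gpx2-ps1, a processed pseudogene on chromosome 7 of GRCm38 (100264675 to 100265245, plus strand, within the span of Pgm2l1), aligned to 571 bases of the Gpx2 transcript with 98.2% identity and 10 differences. Its longest stretch without a difference was 140 bases, just under the read length of 150 bases. Around the catalytic codon the pseudogene has the sequence of Gpx2, which is shown here because these bases alone cannot tell the copies apart.
Gpx2-ps1: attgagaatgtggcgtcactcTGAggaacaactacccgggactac
Counts on Gpx2-ps1 were 4.22%, 4.52%, 4.31% and 4.28% of those on Gpx2 in untreated fl/fl, treated fl/fl, untreated ΔIEC and treated ΔIEC organoids (means of 4 cultures), with single cultures between 3.32% and 5.34%. The log2 fold change of the pseudogene with IL-22 was 3.11 in fl/fl and 2.09 in ΔIEC organoids, close to that of Gpx2. Which of these reads came from Gpx2 cannot be told from counts. Reads that aligned to several places, 21.5% to 24.2% of those in the table, were counted on no gene, and how many of them fit Gpx2 was not tested. Adding the pseudogene's counts to Gpx2 left the interaction at -0.90.

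**Figure D3:**
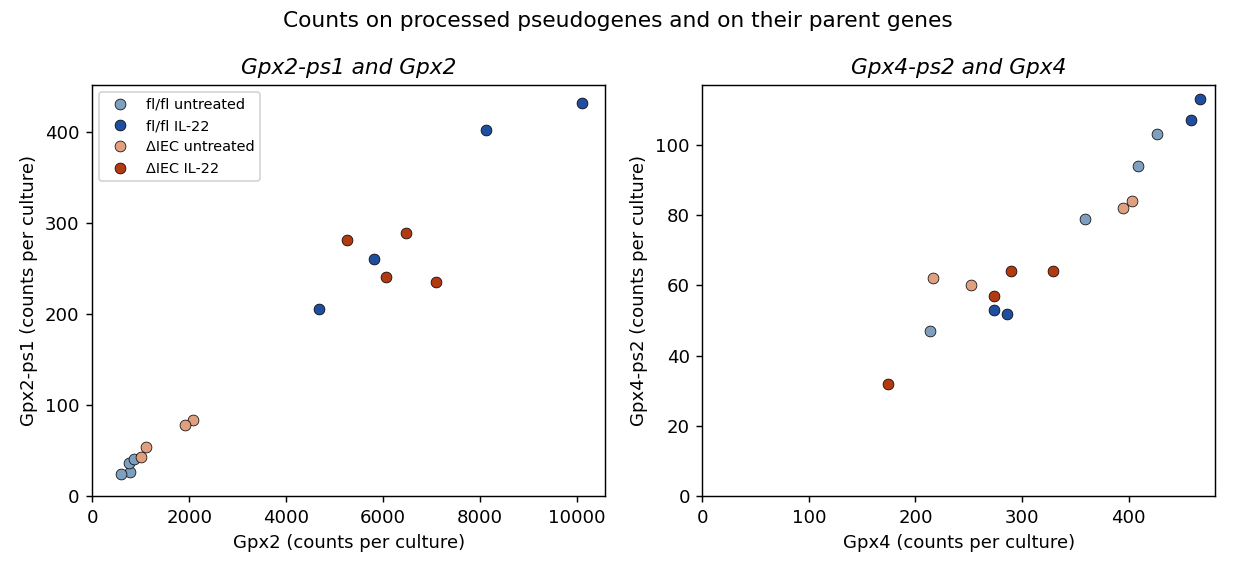
Counts on Gpx2-ps1 against Gpx2 (left) and on Gpx4-ps2 against Gpx4 (right) in each of the 16 cultures, coloured by group, on linear axes from 0. The counts on each pseudogene run along with those on its parent gene, at 3.32% to 5.34% of Gpx2 and 18.2% to 28.7% of Gpx4.

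Fntb, the gene around Gpx2 on the opposite strand, encodes a subunit of protein farnesyltransferase. Exon overlap of these genes is not reported here. Fntb was at 19.1 ± 1.19 CPM in untreated and 15.5 ± 3.70 CPM in treated fl/fl organoids, and at 22.6 ± 2.48 and 21.2 ± 2.31 CPM in ΔIEC organoids (SD, n = 4). With IL-22, Fntb changed by -0.28 (SE 0.15) in fl/fl and -0.09 (SE 0.15) in ΔIEC organoids on the log2 scale. The adjusted p-values of edgeR were 0.164 and 0.697. The strand setting of the counting is not given, and exchange of reads between these genes was not tested.

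The genes whose profile over the 16 cultures was most like that of Gpx2 were taken by the root mean square difference of log2 CPM after centring each gene on its own mean. Gpx2-ps1 was nearest, at 0.17, followed by Mmp28 (0.40), a matrix metalloproteinase, 6530402F18Rik (0.42), Chp2 (0.43), a calcineurin B homologue, and Chst4 (0.48), a sulfotransferase. The median over the 12558 other tested genes was 1.37. The profiles share libraries and treatment. The other tested members were not near Gpx2, with Gpx4 at 1.43 (rank 7994) and Gpx1 at 1.58 (rank 10628), both above that median. A gene without any change would lie at 1.33, the spread of the Gpx2 profile about its own mean. Among the nearest genes, 6530402F18Rik changed with IL-22 by 3.97 (fl/fl) and 3.36 (ΔIEC) on the log2 scale and by 1.29 between untreated genotypes. Mmp28 had 2.51, 2.49 and 0.14.

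Gpx1 did not change past the threshold in any comparison. In fl/fl organoids it was at 213.9, 229.9, 120.6 and 129.5 CPM untreated and at 148.1, 165.7, 120.9 and 88.1 CPM with IL-22. The first fl/fl line was above the second in both conditions, with means of 222 against 125.0 CPM untreated and 157 against 105 CPM with IL-22. In ΔIEC organoids Gpx1 was at 105.6, 124.5, 116.2 and 121.3 CPM untreated and at 66.0, 121.3, 122.4 and 102.4 CPM with IL-22. The untreated groups overlapped, with 1 culture of the second fl/fl line (120.6 CPM) among the ΔIEC cultures and the other 3 fl/fl cultures above them.

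The log2 fold change of Gpx1 with IL-22 was -0.42 (SE 0.21, adjusted p = 0.135) in fl/fl and -0.17 (SE 0.22, adjusted p = 0.607) in ΔIEC organoids. With organoid line as a replicate block, the first of these was -0.38 (SE 0.11) with an adjusted p of 0.00627, past the threshold. It did not pass with the cultures of a line summed (-0.38, adjusted p = 0.361) or in limma-voom with a correlation within lines (-0.40, adjusted p = 0.0449). Between the untreated genotypes, Gpx1 differed by -0.58 (SE 0.21) with an adjusted p of 0.0576. Between the treated genotypes it differed by -0.33 (SE 0.21) with an adjusted p of 0.243. The untreated difference rested on the first fl/fl line: it was -0.93 (adjusted p = 0.000406) without the second fl/fl line and -0.10 (adjusted p = 0.762) without the first. Without a filter on low counts, the fl/fl response (-0.41, SE 0.10, adjusted p = 0.000504) and the untreated difference (-0.56, SE 0.10, adjusted p = 1.56e-06) of Gpx1 both passed. These estimates were close to those of the main fit, and their SE were smaller. The interaction was 0.25 (SE 0.30, 95% interval -0.41 to 0.90, adjusted p = 0.923).

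Gpx4, the phospholipid hydroperoxide enzyme, had the narrowest range of the tested members over the 16 cultures, from 70.5 to 119.5 CPM. It was at 119.5, 109.0, 97.0 and 96.0 CPM in untreated and 108.5, 107.3, 87.7 and 85.7 CPM in treated fl/fl organoids. The ΔIEC cultures had 93.1, 99.2, 101.3 and 89.7 CPM of Gpx4 untreated and 70.5, 82.4, 82.8 and 95.2 CPM with IL-22. The groups overlapped in all 4 comparisons, whereas among all tested genes 30.9%, 27.3%, 23.3% and 29.6% had groups without overlap in these comparisons (IL-22 in fl/fl, IL-22 in ΔIEC, genotype untreated, genotype with IL-22). Its log2 fold change with IL-22 was -0.12 (SE 0.10, 95% interval -0.35 to 0.10, adjusted p = 0.393) in fl/fl and -0.21 (SE 0.10, 95% interval -0.44 to 0.02, adjusted p = 0.152) in ΔIEC organoids. Between the untreated genotypes it differed by -0.14 (SE 0.10), with an adjusted p of 0.362. Between the treated genotypes the difference was -0.23 (SE 0.10), with a 95% interval of -0.45 to 0.0013. Its unadjusted edgeR p was 0.0428 and its adjusted p 0.101. The interval was built with fewer degrees of freedom than the test and is wider than the unadjusted p implies. The interaction was -0.09 (SE 0.15, adjusted p = 0.962). The processed pseudogene Gpx4-ps2 on chromosome 10 (45875291 to 45876086) was 99.6% identical to Gpx4 over 512 bases, with a stretch of 314 bases without a difference, and its counts were 18.2% to 28.7% of those on Gpx4, so the level of Gpx4 is uncertain by reads assigned to either copy.

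Of the 3 tested members, calls are given for Gpx1 and Gpx4, since Gpx2 was chosen for its response. Neither was called with IL-22 in fl/fl organoids, where 20.8% of all tested genes were called in either direction, or in ΔIEC organoids, where 17.5% were. Between untreated genotypes neither was called, beside 9.76% of all genes. Between treated genotypes edgeR and DESeq2 called none, beside 19.8% of all genes in edgeR, and 1 (Gpx4) had an unadjusted edgeR p under 0.05. Nothing is read from calls of Gpx2 in these comparisons.

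**Figure D4:**
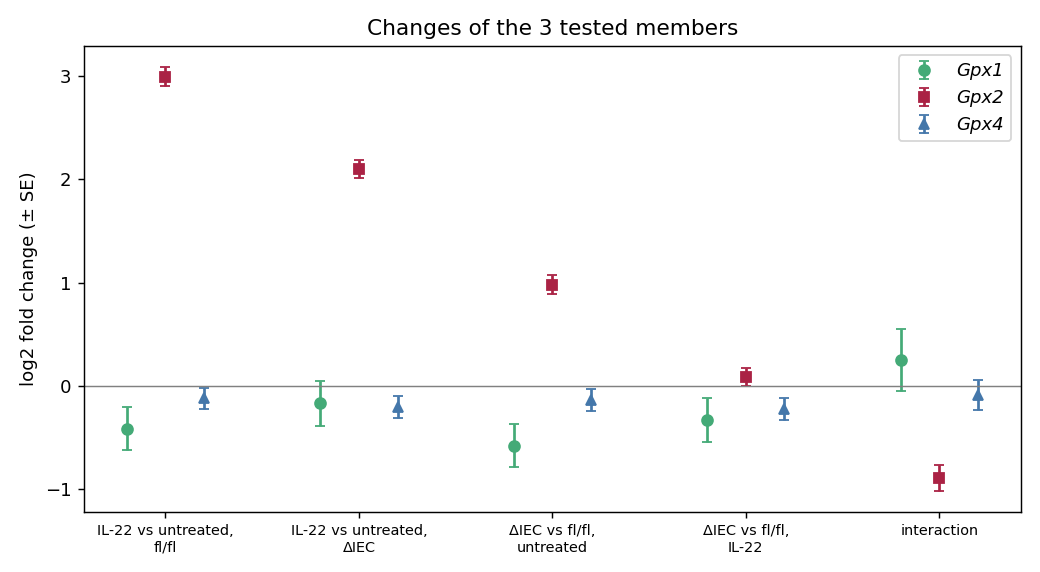
Log2 fold change ± SE of Gpx1, Gpx2 and Gpx4 in the 4 comparisons and the interaction, from a single edgeR fit of the 4 groups (n = 4 each). Gpx2 stands at 2.99, 2.10, 0.98, 0.09 and -0.89, and Gpx1 and Gpx4 lie between -0.58 and 0.25.

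Gpx3, the secreted enzyme, was at the limit of detection, with 72 counts over all cultures. The counts in untreated fl/fl organoids were 3, 9, 0 and 5 and in treated ones 2, 10, 0 and 5. Untreated ΔIEC organoids had 5, 5, 7 and 2 counts and treated ones 0, 4, 8 and 7. The group means were 1.13, 1.16, 1.51 and 1.40 CPM, and the groups overlapped in every comparison. Exact permutation tests of log2 CPM, two-sided, gave p = 0.943 and 0.743 for IL-22 in fl/fl and ΔIEC organoids and p = 0.514 and 0.771 for genotype in untreated and treated organoids, where the smallest possible p is 0.0286. A difference in Gpx3 was not detectable at this depth.

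The ER-resident members were barely counted. Gpx7 had 0, 2, 1 and 3 counts in untreated fl/fl, 1, 1, 2 and 0 in treated fl/fl, 3, 2, 3 and 0 in untreated ΔIEC and 0, 1, 1 and 0 in treated ΔIEC organoids. No culture was above the floor of 3 counts, and no fold change is given. Gpx8 had 1 count in untreated fl/fl replicate 4, 1 count in untreated ΔIEC replicate 2 and none elsewhere, and the 0 counts of the treated groups allow up to 0.194 CPM in fl/fl and 0.235 CPM in ΔIEC organoids (3 counts per group).

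Levels of different members were compared per kilobase of transcript, and the order depended on the length used. The annotated exons of Gpx2 cover 3222 bases because of a transcript model of 3165 bases, whereas its longest protein-coding transcript has 1067 bases. For Gpx1 and Gpx4 the corresponding pairs are 1441 and 1072 bases and 1724 and 995 bases. In untreated fl/fl organoids, Gpx1 (120 ± 39.2), Gpx2 (72.0 ± 9.56) and Gpx4 (61.1 ± 6.44 CPM per kb of all exons) came in this order, and the cultures of neighbouring genes overlapped. Per kb of the coding transcript, a scale chosen after seeing the data, Gpx2 (218 ± 28.9) came before Gpx1 (162 ± 52.6) and Gpx4 (106 ± 11.1), again with overlap between neighbours.

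In untreated ΔIEC organoids Gpx2 was first on both scales, with 142 ± 9.90 CPM per kb of all exons against 81.1 ± 5.73 for Gpx1 and 55.6 ± 3.11 for Gpx4, without overlap. Per kb of the coding transcript it was at 428 ± 29.9, and Gpx1 (109 ± 7.71) and Gpx4 (96.3 ± 5.37) overlapped. With IL-22, Gpx2 was above every culture of the other members on both scales, at 573 ± 23.2 and 609 ± 42.8 CPM per kb of all exons in fl/fl and ΔIEC organoids, and Gpx1 overlapped with Gpx4.

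The make-up of the family followed Gpx2. Its share of the counts on the 6 members was 45.8 ± 8.69% in untreated fl/fl and 89.0 ± 1.72% in treated fl/fl organoids, and 67.9 ± 2.10% and 91.2 ± 1.88% in ΔIEC organoids (SD, n = 4). The summed CPM of the members were 513 ± 47.2 and 2076 ± 112 in fl/fl and 671 ± 30.9 and 2149 ± 111 in ΔIEC organoids. Untreated fl/fl cultures ranged from 36.5% to 55.5% in the share of Gpx2, the widest of the groups, and the first line, in which Gpx1 was high, held the lower shares.

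**Figure D5:**
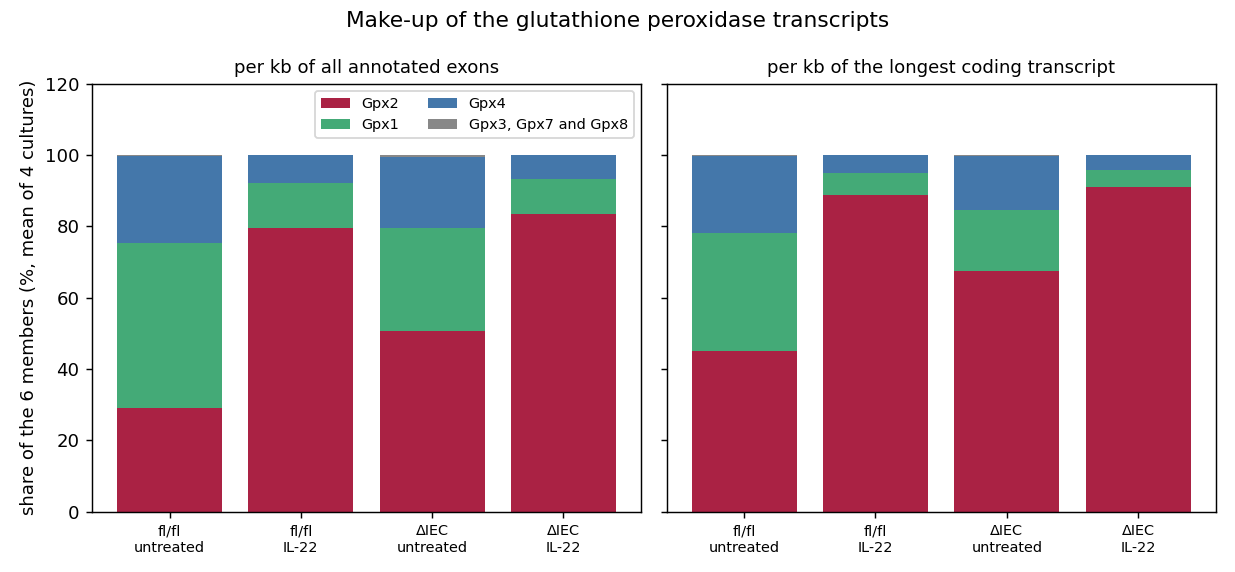
Share of Gpx2, Gpx1, Gpx4 and the 3 rare members in the summed level of the family, as the mean of 4 cultures per group, per kb of all annotated exons (left) and of the longest coding transcript (right). The share of Gpx2 rises with IL-22 in both genotypes on both scales, for example from 29.1% to 79.6% in fl/fl organoids on the left.

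The genes that supply glutathione, reduce it again or take part in its breakdown were looked at as a list of 14, all tested. Counts of this list thus mix supply and breakdown. With IL-22, 5 rose and 1 fell in fl/fl organoids, where 10.6% of all tested genes rose and 10.2% fell, and 6 rose and none fell in ΔIEC organoids, where 9.83% rose and 7.65% fell. Gsr, which reduces oxidized glutathione, went from 469 to 872 CPM in fl/fl (log2 fold change 0.90, SE 0.07, adjusted p = 7.63e-09) and from 433 to 865 CPM in ΔIEC organoids (1.00, SE 0.07, adjusted p = 1.45e-09). Slc7a11, the cystine importer, rose by log2 fold changes of 0.98 and 1.17, and Chac1, which degrades glutathione, by 0.81 and 0.78. Gclm, the modifier subunit of the first enzyme of glutathione synthesis, fell by 0.85 on the log2 scale in fl/fl organoids. The median log2 fold change of the list was 0.20 and 0.22 in the 2 genotypes.

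Between untreated genotypes, 3 genes of this list were higher in ΔIEC organoids and none lower, beside 3.78% and 5.98% of all tested genes. They were Slc7a11 (log2 fold change 0.52) and the NADPH-producing enzymes Pgd (0.61) and G6pdx (0.51). With IL-22, 4 were higher in ΔIEC than in fl/fl organoids and none was lower, beside 9.91% and 9.84% of all tested genes, namely the same 3 genes and Gclm (0.62). The median of the list was -0.04 between untreated and 0.25 between treated genotypes.

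Of 18 tested genes of other peroxide and superoxide removal, 1 rose and 5 fell with IL-22 in fl/fl organoids. In ΔIEC organoids 3 rose and 2 fell. Of all tested genes, 10.6% rose and 10.2% fell in fl/fl and 9.83% and 7.65% in ΔIEC organoids. Cat, which encodes catalase, went from 138 to 62.7 CPM in fl/fl (log2 fold change -1.14, SE 0.13, adjusted p = 1.51e-06) and from 132 to 55.6 CPM in ΔIEC organoids (-1.26, SE 0.13, adjusted p = 4.87e-07). Glrx, a glutaredoxin, fell in both genotypes, and Srxn1, which restores overoxidized peroxiredoxins, rose in both. Sod1, the cytosolic superoxide dismutase, fell by 0.51 on the log2 scale in fl/fl organoids and was higher in treated ΔIEC than in treated fl/fl organoids by 0.38. Sod3 was not tested. Between untreated genotypes, 1 gene of this list was lower in ΔIEC organoids (Prdx6, log2 fold change -0.27), beside 5.98% of all tested genes. With IL-22, 2 were higher and 1 was lower, beside 9.91% and 9.84% of all tested genes. The list's median with IL-22 was -0.15 in fl/fl and -0.07 in ΔIEC organoids.

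Of 17 tested selenoprotein genes outside the family, 1 rose and 3 fell with IL-22 in each genotype, where 20.8% and 17.5% of all tested genes were called in fl/fl and ΔIEC organoids. Selenos, an ER membrane selenoprotein, rose by 0.49 in fl/fl and 0.83 in ΔIEC organoids on the log2 scale. Selenop, which carries selenium between tissues, had log2 fold changes of -1.34 and -1.44, Selenoh of -1.17 and -1.15, and Dio1, a deiodinase of thyroid hormone, of -2.69 and -2.14, with Dio1 at 8.57 CPM in untreated and 1.28 CPM in treated fl/fl organoids. Between untreated genotypes, 1 gene of this list was lower in ΔIEC organoids and none higher, beside 5.98% and 3.78% of all tested genes. It was Selenow (log2 fold change -1.33), at 4.90 CPM in ΔIEC against 12.3 CPM in fl/fl organoids. Between treated genotypes, 2 genes of this list were higher and 3 lower in ΔIEC organoids, beside 9.91% and 9.84% of all tested genes. The list's median with IL-22 was -0.03 in fl/fl and 0.02 in ΔIEC organoids.

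Of 10 genes for selenocysteine incorporation, 1 rose and 3 fell with IL-22 in fl/fl organoids. Among all tested genes, 10.6% rose and 10.2% fell there. Scly, Sepsecs and Pstk, which recycle selenium or make selenocysteine on its tRNA, fell by 0.59, 0.50 and 0.40 on the log2 scale, and Secisbp2l rose by 0.52. In ΔIEC organoids none of the 10 passed the threshold, beside 17.5% of all tested genes. Of the 10, 5 had an unadjusted edgeR p under 0.05, and none was called by DESeq2. Between untreated genotypes, 1 of the 10 was higher in ΔIEC organoids and none lower, beside 3.78% and 5.98% of all tested genes. With IL-22, 2 were higher and none lower, beside 9.91% and 9.84%. Lrp8, a receptor for Selenop, was higher in ΔIEC organoids by 0.67 untreated and 0.64 with IL-22, and Scly by 0.66 with IL-22.

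Of 10 genes of oxidative protein folding in the ER, the pathway of Gpx7 and Gpx8, 2 rose and 1 fell with IL-22 in fl/fl organoids. In ΔIEC organoids 4 rose and none fell. Among all tested genes, 10.6% rose and 10.2% fell in fl/fl and 9.83% and 7.65% in ΔIEC organoids. Hspa5, the main ER chaperone, rose in both, by 0.62 and 0.60 on the log2 scale. Ero1l, the ER oxidase, was at 2342 CPM untreated and 4039 CPM treated in fl/fl organoids (log2 fold change 0.79), and was lower in treated ΔIEC than in treated fl/fl organoids by a log2 fold change of -0.85. None of the 10 passed the threshold between untreated genotypes, beside 9.76% of all tested genes (4 at an unadjusted edgeR p under 0.05, and 3 called by DESeq2). With IL-22, 3 were higher and 1 was lower in ΔIEC organoids, beside 9.91% and 9.84% of all tested genes. Across these 5 lists, no gene passed the threshold for the interaction of genotype and IL-22 in edgeR, where 0.0159% of all tested genes did (8 of 65 pathway genes at an unadjusted p under 0.05, and none called by DESeq2). With organoid line as a replicate block, and without the filter on low counts, 1 pathway gene was higher in it. Prdx4, Txnrd1, Txnrd2 and Sephs2 each belong to 2 of the lists.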

How the data were processed

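The authors trimmed paired-end reads with cutadapt, aligned them to GRCm38 (mm10) with TopHat2 and used HTSeq for counting. The deposited values are raw counts per gene in 16 cultures. Versions, the annotation release and the strand setting of the counting are not given in the sources used here. Groups came from the sample labels, which also number the organoid lines. Some lines of the table hold reads on no counted feature (38.02% to 40.08% of reads), on several genes (0.740% to 1.13%) or at several places (21.5% to 24.2%). These lines were left out of library sizes and tests.

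Of the 49585 genes, 49326 (99.5%) were matched without version to GENCODE mouse release M21 for symbols, positions and lengths. Counts were tested in R 4.3.3 with edgeR 4.0.16: filterByExpr, TMM, a single quasi-likelihood fit of 4 group means, Benjamini-Hochberg adjustment over all 12559 genes per comparison, two-sided, threshold 0.01. SE was taken as |log2 fold change| / √F. CPM use TMM-scaled totals of the tested genes, and log2 CPM a prior count of 2. Sequences were aligned with Biopython 1.88. The scripts were tested on simulated data.

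The members, lists, markers and tests were chosen with earlier results of these data known. Named were all members, up to 4 genes per list, comparison and direction with the largest change among those past the threshold, and the 5 genes most like Gpx2. Alternatives were DESeq2 1.42.0, RLE scaling, no filter or at least 10 counts in every culture, an adjusted p of 0.05, lines summed, line as a block, limma-voom (limma 3.58.1) with correlation within lines, each culture or line left out, other lengths, and pseudogene counts added to the parent.

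Lines pair treated with untreated cultures, since both came from 1 line. Within lines, their deviations from the group means correlated across genes by 0.26 to 0.44 in fl/fl and 0.06 to 0.32 in ΔIEC organoids. Between lines the values were -0.43 to -0.22 and -0.35 to -0.08. Deviations cancel within a group by construction, so positive correlations within lines bring negative ones between lines. Lines are nested in genotype, so a block was possible in the IL-22 comparisons and the interaction alone. Libraries of a group differed by more than sampling noise. The immune marker list is reported only in part here.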

Additional observations from a re-analysis of the deposited data

Results flagged for a closer look

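The response of Gpx2 to IL-22 differed between the genotypes by -0.893 on the log2 scale (ΔIEC minus fl/fl, SE 0.12), which is the value that put the gene forward. Both fl/fl lines rose by more than both ΔIEC lines, in these same values, which is no separate support. A culture stood far from the others of its group in 2 of the 30 groups of values examined, and chance flags about 1 in 20. Both were Gpx8, at 0.268 CPM in untreated fl/fl replicate 4 and 0.246 CPM in untreated ΔIEC replicate 2, and each is a single count where the other 3 cultures of the group had none.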

How the results depend on the processing

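Gpx2 kept its direction with IL-22 (2.88 to 3.14 in fl/fl, 2.06 to 2.14 in ΔIEC), between untreated genotypes (0.86 to 1.10) and in the interaction (-1.04 to -0.78) under every alternative run, and ranged from -0.0018 to 0.14 between treated genotypes. With the cultures of a line summed, 2 against 2, 0 members were called in the interaction and 0 between untreated genotypes. The interaction of Gpx4 ranged from -0.25 without the second to 0.021 without the first ΔIEC line, which turned its direction. With organoid line as a replicate block, 1 member was lower in fl/fl organoids (Gpx1), the Gpx2 interaction was -0.90, and 1 pathway gene was higher in the interaction. The block changed no other call of a member. Without a filter on low counts, 1 member (Gpx1) was lower with IL-22 in fl/fl organoids, 1 (Gpx1) between untreated genotypes, with 4 pathway genes lower there and 1 higher in the interaction, and the cause was not tested.

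Counts of pathway genes moved by over 1.5 times as follows. DESeq2 gave 4 lower between untreated genotypes, and limma-voom 1 there and 3 between treated genotypes. An adjusted p of 0.05 gave 9 lower with IL-22 in ΔIEC organoids, 9 higher and 9 lower between untreated, and 19 higher and 8 lower between treated genotypes. Summed lines gave 3 higher and 4 lower in fl/fl and 4 higher in ΔIEC organoids, 0 and 0 between untreated, and 1 and 0 between treated genotypes. With a culture or line left out, pathway genes higher and lower with IL-22 numbered 5 to 11 and 6 to 12 in fl/fl (main 10 and 12) and 6 to 17 and 5 to 7 in ΔIEC organoids (14 and 5). Between genotypes they numbered 0 to 8 and 0 to 8 untreated (4 and 2) and 6 to 15 and 1 to 5 treated (12 and 5). The lowest count of pathway genes higher between untreated genotypes, 0, came without the first ΔIEC line, and 8 were lower without the second fl/fl line. Members lower numbered 0 to 1 between untreated and between treated genotypes, the 1 being Gpx1 without the second fl/fl line (-0.93 and -0.60), and 0 to 1 in the interaction, for which Gpx2 was chosen and which is no test of it. At 0.188 to 0.453 CPM per count, depth limits any statement on Gpx3, Gpx7 and Gpx8.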
